A study of Mus musculus with 12 samples.

Results

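The 10 transcripts described here are those of the core circadian clock in mouse: Arntl, Clock, Npas2, Per1, Per2, Per3, Cry1, Cry2, Nr1d1 and Dbp. They were taken by name from the 55487 genes of an RNA sequencing count table. These genes and the further lists below were chosen with earlier results of these data known. The libraries came from C57BL/6 mice, male or female and 6 to 10 weeks old, with no transgene or deletion in any group. There were 4 groups of 3 libraries. Small intestinal (SI) crypts were released from the jejunum with EDTA, and large intestinal (LI) crypts were freed with Collagenase D, Dispase and DNAse before EDTA. SI and LI monolayers were grown from such crypts on Matrigel-coated wells, first in a seeding medium with CHIR-99021, EGF, LDN-193189, R-spondin-1, Wnt3a and Y-27632 and then in a medium with Wnt3a, EGF, Noggin and R-spondin-1, and were taken at 24 h. A crypt library stands for 1 mouse and a monolayer library for pooled wells, whose spread may be technical. All libraries enter a common estimate of the spread of each gene. Each p-value, also between monolayers, thus mixes the spread between mice with that between samples of pooled wells. The LI monolayers came from the same mice as SI monolayers, and the labels do not tie libraries to mice. The mice were kept on a light cycle, and the time of day at which crypts or monolayers were taken is not given in the sources used here. No series of times was sampled within a group, so a change in the level of a clock gene and a change in its phase cannot be told apart.

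The clock is a feedback loop in transcription. ARNTL (BMAL1) pairs with CLOCK, or with its paralog NPAS2, and the pair switches on genes that carry E-box elements, among them the Per and Cry genes, Nr1d1 and Dbp. The PER and CRY proteins enter the nucleus and inhibit the pair that induced them. NR1D1 (REV-ERBα) represses Arntl and Npas2 through RORE elements, and DBP activates genes through D-box elements, including Per genes. In the intestine the clock is known to time cell division and nutrient uptake, and meals are a strong cue for it.

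All 10 transcripts were detected in every library, with 43 counts in the lowest case (Dbp in a library of LI monolayers) and 6487 in the highest (Nr1d1 in SI crypts), and all passed the filter on low counts. The libraries held 59016196 to 76216530 counts, so that a count of 3 stood at 0.0394 to 0.0508 CPM (counts divided by library size). The libraries were epithelial: the summed level of 8 epithelial markers was 12598 to 35554 CPM, against at most 214 CPM for 8 immune and 54.4 CPM for 8 mesenchymal markers. Lyz1, a lysozyme gene of SI Paneth cells, stood at 1254 CPM or more in each SI library and at 29.8 CPM or less in each LI library. Of the other Paneth cell markers used below, Mmp7 was also higher in every SI library than in every LI library. Ang4 did not separate all libraries by region. It stood at 430, 901 and 410 CPM in LI crypts, above SI monolayers (234, 228 and 234 CPM). The share of mitochondrial counts was 4.56% to 9.16% in SI crypts and 0.472% to 2.59% elsewhere. Levels below are CPM scaled by the trimmed mean of M-values (TMM), which corrects for differences in RNA composition. Fold changes are log2 values from edgeR's quasi-likelihood test with Benjamini-Hochberg adjustment over 19581 tested genes, and a transcript was called with an adjusted p under 0.05 and a fold of at least 2.

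The promoters of the 3 transcripts that moved most with culture, Cry1, Nr1d1 and Dbp, are shown to place the elements named above. Each is the 250 bases before the RefSeq start site on GRCm38.p6, read 5′ to 3′ on the gene's strand. Capitals mark an E-box (CACGTG) or a match to its variant, the E′-box (CACGTT, which reads AACGTG on the opposite strand).

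Cry1, chr10:85185055-85185304, minus strand: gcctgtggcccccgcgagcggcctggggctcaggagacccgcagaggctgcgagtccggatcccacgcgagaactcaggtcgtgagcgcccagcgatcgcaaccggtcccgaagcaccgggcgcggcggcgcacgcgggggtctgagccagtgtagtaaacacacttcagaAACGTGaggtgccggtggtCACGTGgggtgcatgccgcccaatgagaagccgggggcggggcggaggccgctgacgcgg

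Nr1d1, chr11:98775378-98775627, minus strand: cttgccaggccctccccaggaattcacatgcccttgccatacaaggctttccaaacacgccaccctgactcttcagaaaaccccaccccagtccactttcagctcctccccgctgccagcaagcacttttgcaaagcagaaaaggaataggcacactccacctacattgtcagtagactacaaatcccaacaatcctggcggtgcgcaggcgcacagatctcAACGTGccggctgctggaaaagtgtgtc

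Dbp, chr7:45704997-45705246, plus strand: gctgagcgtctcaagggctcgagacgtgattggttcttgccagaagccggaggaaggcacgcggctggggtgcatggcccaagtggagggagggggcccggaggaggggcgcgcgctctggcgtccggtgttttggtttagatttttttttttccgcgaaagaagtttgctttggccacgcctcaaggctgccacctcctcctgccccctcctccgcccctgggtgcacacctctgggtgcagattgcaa

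Windows of 300 bases (250 before to 50 after each start) were searched on both strands, and 9 of the 10 genes had a window, 13 windows in all. Per2 had no window and was not searched, so nothing is said of its elements. The E-box was found in the windows of Per1 and Cry1, at positions -166 and -60 from the start, and in 7.15% of 32851 windows of all genes. The E′-box stood in Cry1 (position -79), Cry2 (-166) and Nr1d1 (-28) and in 4.68% of all windows. D-boxes (TTACATAA, TTACGTAA, TTATATAA or TTATGTAA) were found in Per3 only, at positions -205 and -158, and in 1.59% of all windows. The RORE (AANT or ATNT followed by AGGTCA or GGGTCA) was found in Arntl only and in 0.773% of all windows. It lies at position 28 from the start site of its window. The match is shown in capitals with its neighbours, as NR1D1 represses Arntl through RORE elements:

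Arntl, chr7:113207528-113207557, plus strand: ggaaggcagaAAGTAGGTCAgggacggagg

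None of the 5 motifs searched, the fifth being the cAMP response element TGACGTCA (1.79% of all windows), stood in the window of Dbp. A match is a string of letters, not a measured binding site.

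With 24 h of culture, Cry1 rose and Nr1d1 and Dbp fell in both regions. The repressor Cry1 was 2.59-fold higher in SI monolayers than in SI crypts and 2.91-fold higher in LI monolayers than in LI crypts. The repressor of the RORE arm, Nr1d1, was 2.62-fold and 2.21-fold lower. The output factor Dbp was 14.3-fold lower in SI and 3.11-fold lower in LI. The change of Arntl did not pass the test in either region (log2 0.07 and -0.12). These 3 genes were the members called in each region: 1 higher and 2 lower in SI, where 26.1% of all tested genes were called (9.71% higher, 16.4% lower), and 1 higher and 2 lower in LI, where 38.0% were called (14.5% higher, 23.5% lower). A share of 3 in 10 is near that background in both regions.

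**Figure D1:**
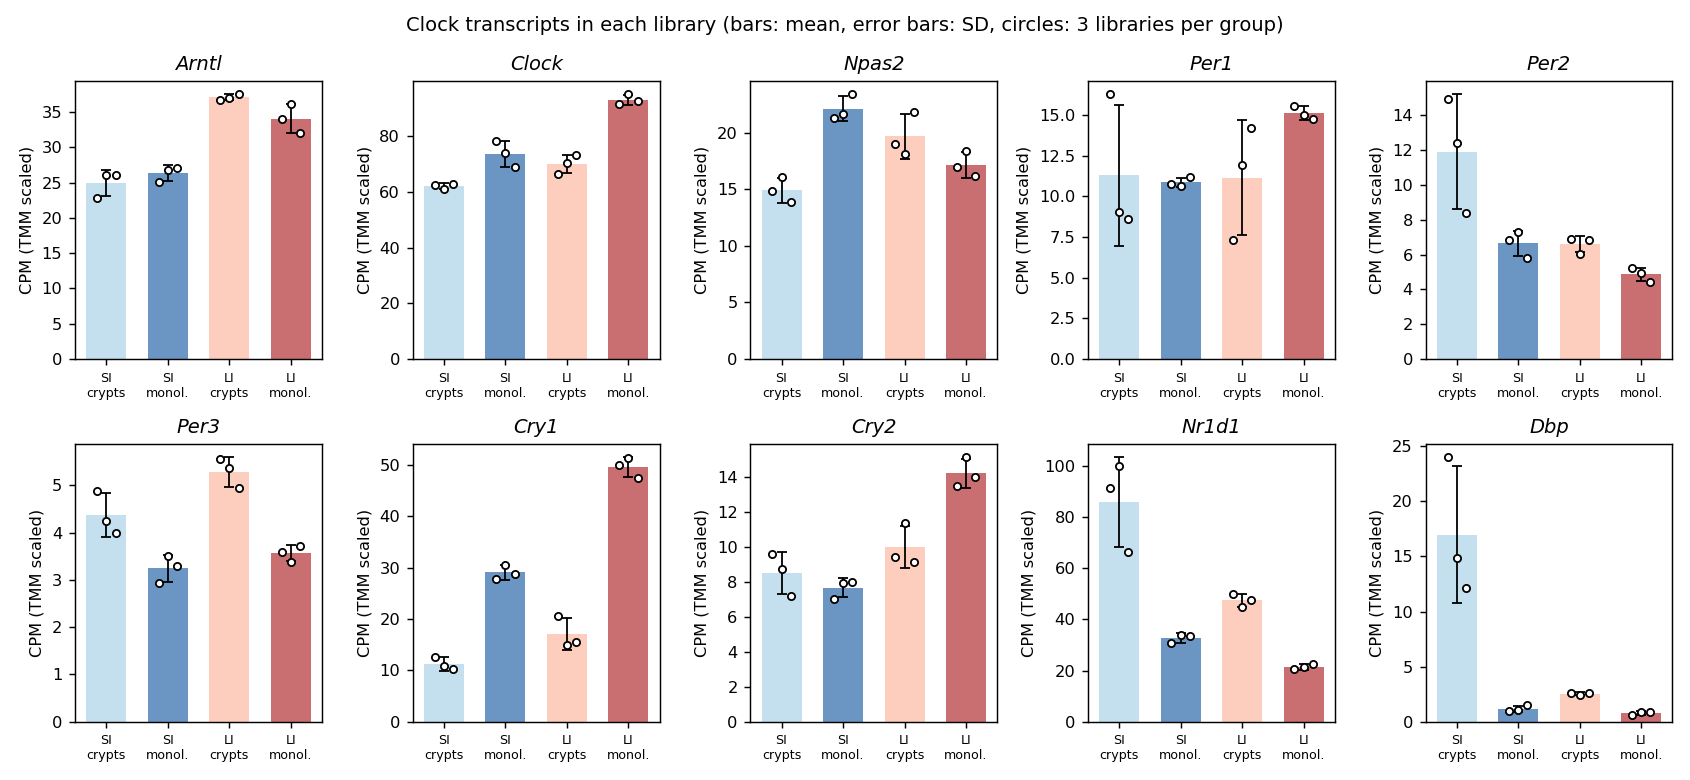
Level of each clock transcript (CPM, TMM scaled, linear axis from 0) in SI crypts, SI monolayers, LI crypts and LI monolayers; circles are the 3 libraries of a group, bars their mean and error bars the SD. Cry1 is higher in all monolayer libraries than in the crypts of the same region, Nr1d1 and Dbp are lower, and Arntl stays between 22.9 and 37.5 CPM.

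The activators come first. Arntl (ENSMUSG00000055116.8, chr7:113207465-113314126, plus strand) stood at 22.9, 26.02 and 26.1 CPM in SI crypts and at 25.1, 26.9 and 27.1 in SI monolayers, and these ranges overlap. In LI it stood at 36.7, 37.03 and 37.5 CPM in crypts and at 34.0, 36.1 and 32.0 in monolayers, without overlap. Every LI library was thus above every SI library. The regional difference was a log2 of -0.57 (SE 0.07, adjusted p = 2.52e-06) in crypts and -0.37 (SE 0.07, adjusted p = 0.000223) in monolayers, SI against LI. With culture the 95% intervals were -0.08 to 0.23 in SI and -0.28 to 0.03 in LI, so that a change of more than 0.28 in size lay outside both.

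Clock (ENSMUSG00000029238.11, chr5:76209868-76304792, minus strand), the partner of ARNTL, stood at 62.6, 61.05 and 62.9 CPM in SI crypts and at 78.2, 74.0 and 69.0 in SI monolayers. In LI it rose from 66.6, 70.5 and 73.2 CPM in crypts to 91.5, 95.1 and 92.6 in monolayers. The monolayer libraries lay above the crypt libraries in both regions, by a log2 of 0.25 (adjusted p = 0.00102) in SI and 0.41 (adjusted p = 4.83e-06) in LI, which is under the fold of 2.

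Npas2 (ENSMUSG00000026077.15, chr1:39193731-39363236, plus strand), which can take the place of CLOCK, moved differently in the regions. It rose from 14.8, 16.1 and 13.8 CPM in SI crypts to 21.3, 21.7 and 23.4 in SI monolayers (log2 0.57, SE 0.09, adjusted p = 3.20e-05). In LI crypts it stood at 19.02, 18.1 and 21.9 CPM and in LI monolayers at 16.9, 18.4 and 16.1, with overlapping libraries (log2 -0.20, adjusted p = 0.0554). The test of the difference between the culture effects gave a log2 of 0.77 (SE 0.12, adjusted p = 9.42e-05). Npas2 was lower in SI than in LI crypts (log2 -0.40, adjusted p = 0.00103) and higher in SI than in LI monolayers (log2 0.37, adjusted p = 0.00204).

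Of the period genes, which encode the partners of the CRY proteins, Per1 (ENSMUSG00000020893.17, chr11:69095217-69109960, plus strand) is also known as a gene quickly induced by glucocorticoids and cAMP. It stood at 16.3, 9.02 and 8.58 CPM in SI crypts and at 7.31, 11.9 and 14.2 in LI crypts. In monolayers it stood at 10.8, 10.6 and 11.2 CPM in SI and at 15.6, 14.98 and 14.8 in LI. The crypt libraries of each region thus differed more among themselves than the regions did. The SD of its log2 level was 0.51 in SI crypts and 0.50 in LI crypts, the highest of the 10 genes, and 0.04 in either set of monolayers. Beside these, the median SD of all tested genes was 0.176, 0.157, 0.105 and 0.117 in SI crypts, LI crypts, SI monolayers and LI monolayers. No comparison of Per1 passed the test, and the intervals were wide: -0.68 to 0.57 for culture in SI and -0.18 to 1.06 in LI. Its SI monolayers lay below its LI monolayers without overlap, as 62.4% of all tested genes did not overlap there. The test between them (log2 -0.48, SE 0.27, adjusted p = 0.172) used a spread shared with the crypt libraries, so a difference between monolayers is not excluded. Its direction in SI with culture rested on SI crypt replicate 1, without which the log2 value was 0.30 in place of -0.05.

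Per2 (ENSMUSG00000055866.9, chr1:91415982-91459324, minus strand) fell with culture in both regions. It went from 14.9, 12.4 and 8.39 CPM in SI crypts to 6.81, 7.28 and 5.82 in SI monolayers (log2 -0.84, SE 0.17, adjusted p = 0.000392). In LI it went from 6.92, 6.06 and 6.85 CPM to 5.20, 4.94 and 4.44 (log2 -0.44, SE 0.17, adjusted p = 0.0300). Crypt and monolayer libraries did not overlap in either region, and SI crypts were above LI crypts (log2 0.85, adjusted p = 0.000422). Without SI crypt replicate 3, the lowest of its group, the change in SI (log2 -1.04) and the difference between crypts (log2 1.05) passed the fold of 2.

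Per3 (ENSMUSG00000028957.12, chr4:151003652-151044665, minus strand) stood at 4.88, 4.24 and 3.98 CPM in SI crypts and at 2.93, 3.50 and 3.29 in SI monolayers. In LI it stood at 5.56, 5.36 and 4.94 CPM in crypts and at 3.59, 3.38 and 3.71 in monolayers. It was lower in every monolayer library than in every crypt library of either region, by a log2 of -0.43 (adjusted p = 0.0113) in SI and -0.57 (adjusted p = 0.00119) in LI. Per2 and Per3 thus fell together, by less than 2-fold, while Per1 gave no change past the test.

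Cry1 (ENSMUSG00000020038.10, chr10:85131700-85185064, minus strand), the cryptochrome with an E-box and an E′-box in the window shown above, was the member that rose most. It stood at 12.7, 10.8 and 10.2 CPM in SI crypts and at 27.8, 30.6 and 28.8 in SI monolayers (log2 1.38, SE 0.11, adjusted p = 3.65e-08). In LI it stood at 20.6, 14.9 and 15.6 CPM in crypts and at 50.02, 51.3 and 47.5 in monolayers (log2 1.54, SE 0.11, adjusted p = 4.09e-09). The groups fell in the order SI crypts, LI crypts, SI monolayers, LI monolayers with no overlap between neighbours. The difference between the culture effects was -0.17 (95% interval -0.52 to 0.19, adjusted p = 0.405).

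Its paralog Cry2 (ENSMUSG00000068742.11, chr2:92403646-92434043, minus strand) stood at 9.59, 8.75 and 7.22 CPM in SI crypts and at 7.03, 7.94 and 7.997 in SI monolayers, with overlapping libraries (log2 -0.15, adjusted p = 0.286). In LI it rose from 9.45, 11.3 and 9.16 CPM in crypts to 13.5, 15.1 and 14.0 in monolayers (log2 0.51, SE 0.12, adjusted p = 0.00102). The difference between the culture effects passed the test (log2 -0.66, SE 0.17, adjusted p = 0.00387). Within a library, Cry1 exceeded Cry2 by a log2 of 0.30 to 0.50 in SI crypts and 0.40 to 1.12 in LI crypts, and by 1.84 to 1.98 in SI monolayers and 1.76 to 1.89 in LI monolayers. These within-library values are differences of log2 CPM not divided by length, and only their change between groups can be read.

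**Figure D2:**
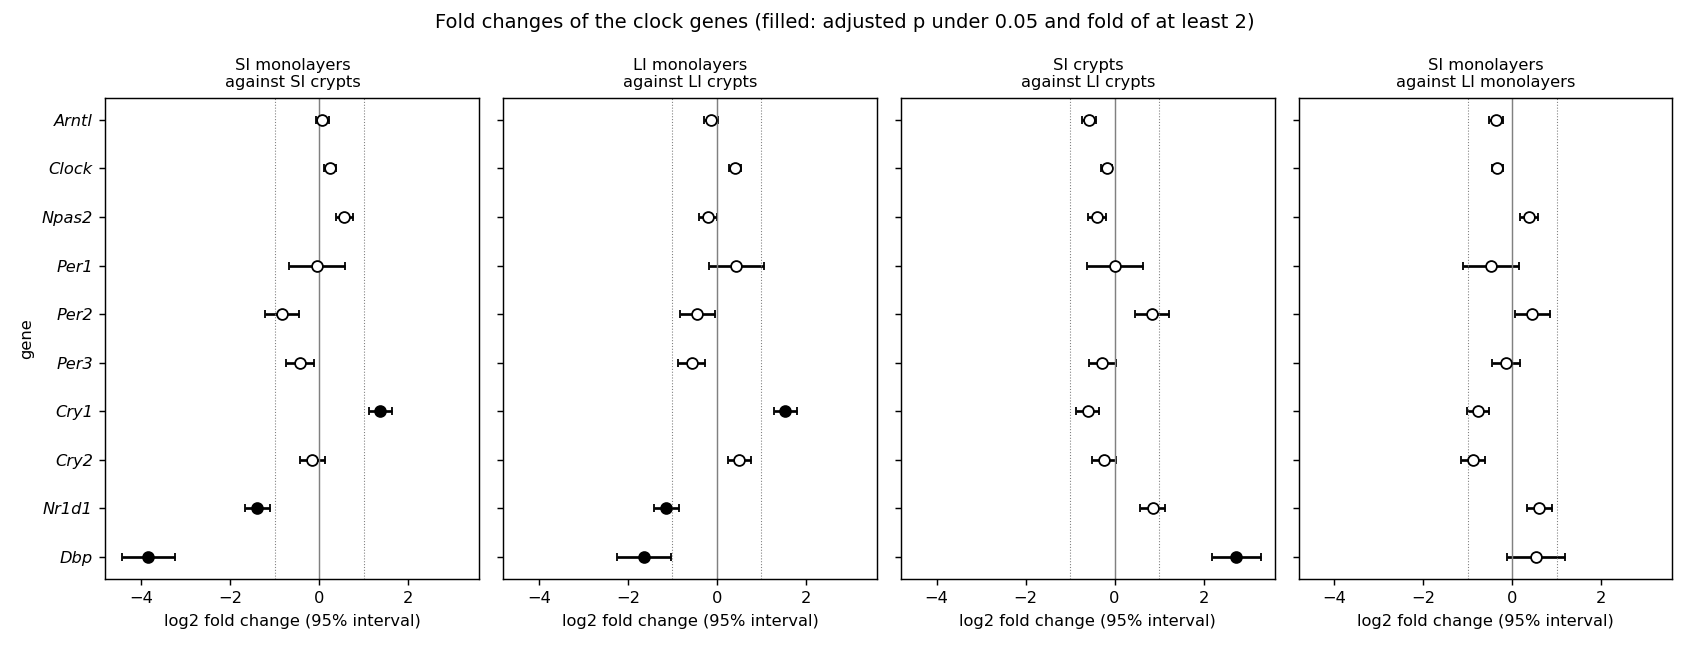
Log2 fold change of each clock transcript with its 95% interval in the 4 pairwise comparisons; filled points passed both thresholds and dotted lines mark a fold of 2. Cry1, Nr1d1 and Dbp are filled with culture in SI (1.38, -1.39 and -3.84) and in LI (1.54, -1.14 and -1.64), Dbp alone between the crypts (2.74), and no gene between the monolayers.

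Nr1d1 (ENSMUSG00000020889.11, chr11:98767932-98775333, minus strand) stood at 91.5, 100.05 and 66.3 CPM in SI crypts and at 30.7, 34.1 and 33.7 in SI monolayers (log2 -1.39, SE 0.12, adjusted p = 4.71e-07). In LI it stood at 50.05, 44.9 and 47.5 CPM in crypts and at 20.5, 21.4 and 22.7 in monolayers (log2 -1.14, SE 0.12, adjusted p = 2.24e-06). The groups did not overlap, in the order SI crypts, LI crypts, SI monolayers, LI monolayers from the highest, which is the reverse of the order of Cry1. SI stood above LI in crypts (log2 0.86, adjusted p = 4.71e-05) and in monolayers (log2 0.61, adjusted p = 0.000958), and without SI crypt replicate 3 the difference between crypts (log2 1.01) passed the fold of 2. Its target Arntl showed no change with culture past the test, so that Nr1d1 minus Arntl within a library went from 1.34 to 1.998 in SI crypts to 0.29 to 0.34 in SI monolayers, and from 0.28 to 0.45 in LI crypts to -0.76 to -0.49 in LI monolayers, as differences of log2 CPM.

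The 3′ end of Nr1d1 overlaps that of Thra, a thyroid hormone receptor gene on the opposite strand, over 263 exon bases or 8.55% of the exon bases of Nr1d1. Thra also moved: 102.01, 101.45 and 91.5 CPM in SI crypts against 42.4, 44.8 and 45.2 in SI monolayers (log2 -1.15), and 51.9, 48.5 and 54.1 CPM in LI crypts against 27.5, 24.9 and 28.5 in LI monolayers (log2 -0.93). How strand was used in counting is not given in the sources used here, so reads from the shared bases cannot be assigned to either gene.

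Dbp (ENSMUSG00000059824.12, chr7:45705088-45710203, plus strand), the D-box activator that is a direct output of the clock, varied most of the 10. It stood at 24.03, 14.8 and 12.1 CPM in SI crypts and at 0.992, 1.06 and 1.50 in SI monolayers (log2 -3.84, SE 0.26, adjusted p = 8.64e-09). In LI it stood at 2.58, 2.39 and 2.65 CPM in crypts and at 0.623, 0.922 and 0.912 in monolayers (log2 -1.64, SE 0.27, adjusted p = 6.91e-05). The lowest SI crypt library was above the highest of every other group, and LI crypts lay above both sets of monolayers. The loss with culture was larger in SI, with a difference between the culture effects of -2.20 (SE 0.36, adjusted p = 0.000189). Of all tested genes, 4.63% had a larger change in size with culture in SI and 25.1% in LI. Dbp was 6.68-fold higher in SI than in LI crypts (log2 2.74, SE 0.24, adjusted p = 1.99e-07), and in monolayers the regions differed by a log2 of 0.54 (95% interval -0.11 to 1.18, adjusted p = 0.127).

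Dbp shares 539 exon bases (18.0%) with Sphk2, a sphingosine kinase gene on the opposite strand. Sphk2 stood at 131, 133 and 116 CPM in SI crypts and at 66.3, 65.9 and 66.2 in SI monolayers (log2 -0.94), and at 98.9, 96.6 and 92.4 CPM in LI crypts against 46.5, 50.2 and 48.8 in LI monolayers (log2 -0.98). Its level in SI over LI crypts was a log2 of 0.40, against 2.74 for Dbp. Reads from the bases shared with Sphk2 cannot be assigned to either gene, as for Nr1d1 and Thra. Dbp was lowest in monolayers (0.623 to 1.50 CPM), and the part of such reads in its values was not tested. The overlap of Cry2 with D930015M05Rik (295 bases) and of Arntl with Gm45355 (33 bases) involved genes with 42 and 4 counts in all libraries together.

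**Figure D3:**
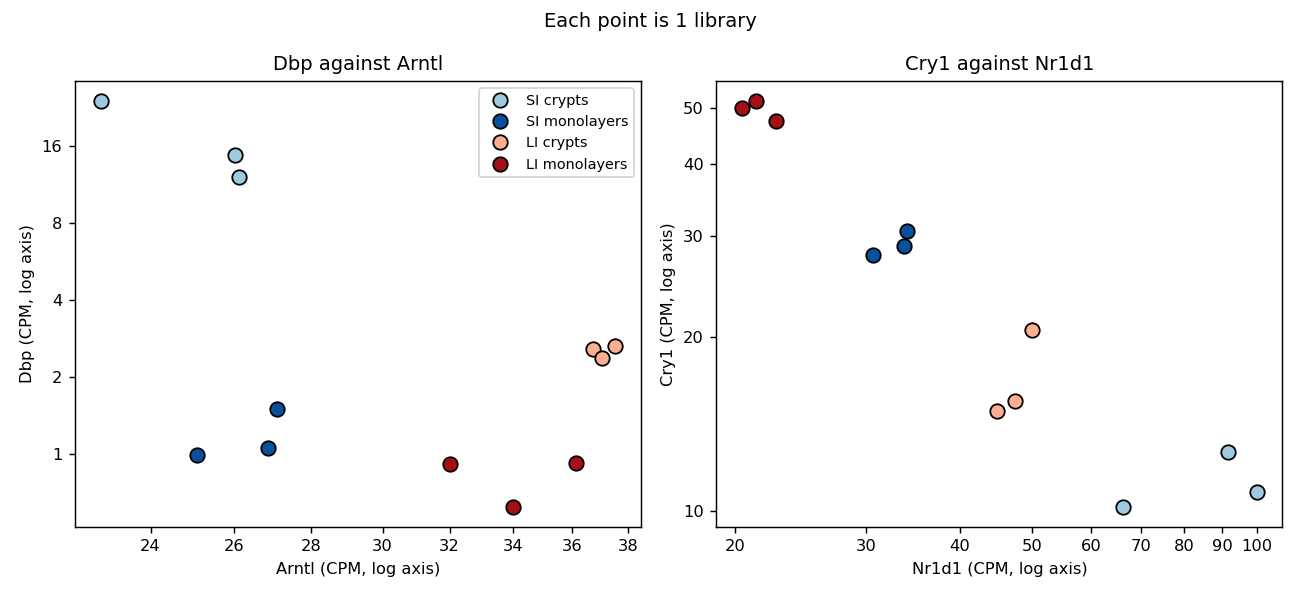
Each point is 1 library, on log axes in CPM: Dbp against Arntl on the left and Cry1 against Nr1d1 on the right. On the left Dbp runs from 0.623 to 24.03 CPM while Arntl separates LI libraries from SI libraries; on the right the libraries run from high Nr1d1 with low Cry1 in SI crypts to low Nr1d1 with high Cry1 in LI monolayers.

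The regional comparison asked which clock transcripts differed between SI and LI, in crypts and again in culture. Crypts of SI and LI were isolated in the different ways given above, so region and isolation cannot be told apart in these comparisons. The same holds for the differences between the culture effects. Between crypts 1 member was called, Dbp, against 22.7% of all tested genes (11.6% higher in SI, 11.1% lower). Between monolayers edgeR called 0 members, against 21.2% of all tested genes (12.4% higher in SI, 8.88% lower), and 7 at an unadjusted p under 0.05; DESeq2 called 0 as well. Smaller differences were frequent. With an adjusted p under 0.05 and no minimum fold, 7 members differed in each comparison, 3 higher and 4 lower in SI (53.9% of all tested genes passed in crypts, 29.2% higher and 24.7% lower, and 51.8% in monolayers, 27.0% higher and 24.9% lower). The libraries of the regions did not overlap for 8 members in crypts and 9 in monolayers, beside 58.6% and 62.4% of all tested genes. Nr1d1 and Per2 were higher in SI and Arntl, Clock and Cry1 lower in SI, in crypts and in monolayers alike. Cry2 was lower in SI than in LI monolayers (log2 -0.89, adjusted p = 8.63e-06), and in crypts the value was -0.23 (adjusted p = 0.112). Of the differences between the culture effects, only that of Dbp was called, against 20.0% of all tested genes (11.4% higher, 8.51% lower). At an adjusted p under 0.05 alone those of Npas2 and Cry2 passed as well (46.3% of all tested genes, 23.3% higher and 23.0% lower). The comparisons share groups and so are not independent of each other.

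With an adjusted p under 0.05 and no minimum fold, 7 members changed with culture in SI and 7 in LI, 3 higher and 4 lower in each (59.6% of all tested genes in SI, 29.0% higher and 30.6% lower, and 68.7% in LI, 32.1% higher and 36.6% lower). In SI Clock, Npas2 and Cry1 rose, and in LI Clock, Cry1 and Cry2 did. Per2, Per3, Nr1d1 and Dbp were the 4 that fell in both regions. The median change of the 10 genes was a log2 of -0.10 in SI and -0.16 in LI, beside -0.05 and -0.05 over all tested genes, and their median size of change was 0.50 and 0.48 beside 0.58 and 0.82. Crypt and monolayer libraries did not overlap for 7 of the 10 in SI and 9 in LI, beside 66.4% and 73.0% of all tested genes. The median size of change of the members was thus below that of all tested genes. Their shares past the test and without overlap were near or above the background.

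To compare levels between genes, CPM were divided by the merged exon length of each gene in kb. On this scale Nr1d1 was the highest of the 10 in SI crypts (27.9 ± 5.70 CPM per kb, SD, n = 3), in SI monolayers (10.7 ± 0.60) and in LI crypts (15.4 ± 0.84), in each case above every library of the next gene. In LI monolayers Cry1 was the highest (14.8 ± 0.59), followed by Nr1d1 (6.99 ± 0.37) and Clock (6.78 ± 0.14), whose libraries overlapped. Dbp was the next after Nr1d1 in SI crypts (5.68 ± 2.09), where its libraries overlapped those of Clock (4.53 ± 0.07). It was the ninth in SI monolayers (0.396 ± 0.093) and LI crypts (0.848 ± 0.046) and the last in LI monolayers (0.274 ± 0.057). Per3 was the last in the other 3 groups (0.337 to 0.550 CPM per kb). Arntl, Clock and Npas2 stayed between 3.11 and 6.78 CPM per kb in every group.

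**Figure D4:**
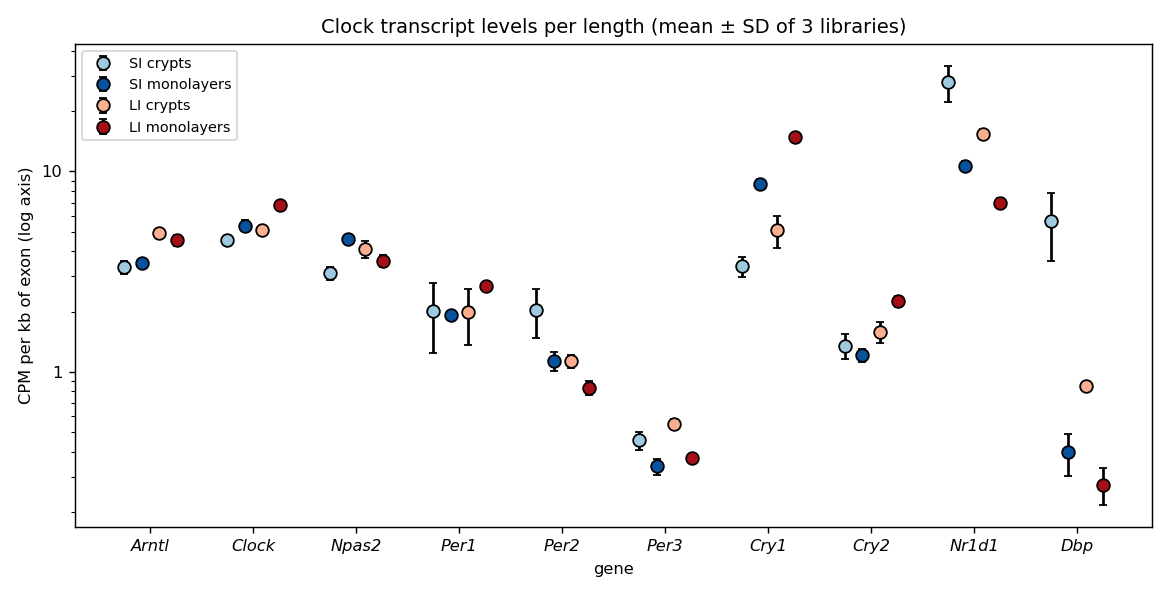
Mean level per length of the 10 clock transcripts in each group (CPM per kb of merged exon, log axis, error bars SD of 3 libraries). The activators Arntl, Clock and Npas2 lie within 3.11 to 6.78 CPM per kb, while Dbp spans 0.274 to 5.68 and Nr1d1 6.99 to 27.9.

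The balance of Dbp against its activator Arntl also changed within libraries. As a difference of log2 CPM, Dbp minus Arntl was -1.11, -0.81 and 0.07 (lowest, median and highest) in SI crypts and -4.63, -4.62 and -4.14 in SI monolayers. In LI it was -3.94, -3.81 and -3.81 in crypts and -5.71, -5.25 and -5.09 in monolayers. SI crypts thus stood apart from all other libraries, and LI crypts lay between SI crypts and SI monolayers. Cry1 minus Dbp changed more and ran from -0.92 to -0.25 in SI crypts, 2.54 to 2.98 in LI crypts, 4.23 to 4.82 in SI monolayers and 5.66 to 6.26 in LI monolayers.

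Other markers moved with these changes. The summed level of 6 enterocyte markers was 7794 to 11561 CPM in SI crypts, 3199 to 3403 in SI monolayers, 48.2 to 163 in LI crypts and 86.4 to 127 in LI monolayers, so SI crypts had the highest sum, as for Dbp and Nr1d1. All 6 were called higher in SI than in LI crypts, and 3 were called lower with culture in SI and 1 in LI. In SI all 6 stood lower in every monolayer library than in every crypt library, beside 66.4% of all tested genes without overlap. The sum of 4 stem cell markers was 1160 to 1547 CPM in SI crypts, 85.5 to 92.8 in SI monolayers, 48.4 to 58.8 in LI crypts and 1.84 to 6.63 in LI monolayers. In SI this sum was carried by Olfm4 (1063 to 1421 CPM in crypts and 17.4 to 20.1 in monolayers): 1 of the 4 was called lower with culture in SI and 3 in LI, and Lgr5 stood at 7.70 to 11.8 CPM in SI crypts and 9.89 to 11.3 in SI monolayers. The sum of 4 goblet cell markers was 2788 to 5040 CPM in SI crypts, 2256 to 2374 in SI monolayers, 7485 to 10262 in LI crypts and 1045 to 1189 in LI monolayers, with 2 called lower with culture in SI and 4 in LI. The sum of 8 immune markers was 140 to 214, 9.17 to 10.5, 29.5 to 39.1 and 3.09 to 3.98 CPM in the same order, and 7 of the 8 were called lower with culture in each region. The sum of 6 proliferation markers was 691 to 736 CPM in SI crypts and 941 to 962 in SI monolayers, and 545 to 610 in LI crypts and 817 to 879 in LI monolayers, with 0 of the 6 called with culture in SI and 1 in LI by edgeR (5 and 5 at an adjusted p under 0.05 alone). For 3 Paneth cell markers the sum was 2296 to 10240 CPM in SI crypts and 3300 to 3506 in SI monolayers. In LI it was 419 to 924 CPM in crypts and 31.7 to 41.6 in monolayers. With culture 1 Paneth marker was called lower in each region. The share of mitochondrial counts was highest in SI crypt replicate 1 (9.16%), the library with the highest Dbp, Per1 and Per2. Lyz1 stood at 1254 CPM in that library and at 2595 and 5392 CPM in SI crypt replicates 2 and 3. The part of enterocytes, stem cells, goblet cells, Paneth cells, immune cells, proliferation and mitochondrial counts in the clock results was not tested. In these bulk libraries fewer cells that express a gene and less RNA per cell cannot be told apart.

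The wider clock was described with a list of 21 further genes, of which 20 were tested. The exception, Rorb, had at most 8 counts in any library. With culture 11 were called in SI (3 higher, 8 lower) and 6 in LI (4 higher, 2 lower), beside 26.1% and 38.0% of all tested genes. Between crypts 6 were called, all higher in SI, beside 22.7% of all tested genes (11.6% higher), and between monolayers 4 (3 higher, 1 lower in SI), beside 21.2%. The difference between the culture effects was called for 7, beside 20.0%. The median size of change of the list was 1.18 in SI and 0.55 in LI, beside 0.58 and 0.82 over all tested genes.

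Hlf and Tef encode the other PAR bZIP factors, which bind the same D-box as DBP. Tef stood at 55.8, 44.9 and 41.3 CPM in SI crypts and at 19.9, 20.3 and 20.1 in SI monolayers (log2 -1.24, SE 0.10, adjusted p = 1.98e-08). In LI it stood at 14.1, 16.2 and 15.9 CPM in crypts and at 14.3, 16.6 and 16.5 in monolayers (log2 0.04, 95% interval -0.19 to 0.27, adjusted p = 0.756). Hlf stood at 3.36, 2.19 and 2.26 CPM in SI crypts and at 0.292, 0.244 and 0.418 in SI monolayers (log2 -3.02, SE 0.42, adjusted p = 1.01e-05), and in LI crypts and monolayers it stayed at 0.471 CPM or less (log2 -0.25, adjusted p = 0.639). Without LI monolayer replicate 3, the highest of its group, Hlf was called lower with culture in LI (log2 -1.17, adjusted p = 0.0295) and higher in SI than in LI monolayers (log2 1.21, adjusted p = 0.0343). All 3 PAR bZIP genes were called higher in SI than in LI crypts (Dbp 2.74, Hlf 3.10, Tef 1.62), and the difference between the culture effects was called for all 3 (Dbp -2.20, Hlf -2.77, Tef -1.27). Nfil3, which encodes a repressor at the same element, was not called in any comparison.

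Of the RORE factors, Nr1d2, the paralog of Nr1d1, stood at 47.4, 41.5 and 43.8 CPM in SI crypts and at 19.9, 19.9 and 19.1 in SI monolayers (log2 -1.17, SE 0.07, adjusted p = 9.67e-10), and fell by less than 2-fold in LI (log2 -0.32, adjusted p = 0.00083). Rora was at 1.28 CPM or less in every library and was called lower with culture in SI (log2 -1.19, adjusted p = 0.0100). Its call was lost without SI crypt replicate 2 (log2 -0.96, adjusted p = 0.0575).

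Several transcripts of the clock's modifiers moved in both regions. Usp2, a deubiquitinase gene with clock-driven expression, fell most: from 63.9, 59.3 and 41.3 CPM in SI crypts to 2.39, 3.18 and 3.71 in SI monolayers (log2 -4.15, SE 0.22, adjusted p = 2.83e-08), and from 21.7, 21.8 and 23.2 CPM in LI crypts to 0.551, 1.09 and 0.927 in LI monolayers (log2 -4.71, SE 0.25, adjusted p = 1.65e-08). Like Dbp, it was lower in every monolayer library than in any crypt library. Ciart, a repressor of CLOCK and ARNTL, rose from 1.01, 0.972 and 0.674 CPM to 5.79, 6.89 and 6.83 in SI (log2 2.88, SE 0.19, adjusted p = 2.31e-09) and from 0.606, 0.716 and 0.483 CPM to 3.94, 4.37 and 4.002 in LI (log2 2.77, SE 0.20, adjusted p = 2.32e-09). Csnk1e, a kinase gene whose product marks PER proteins for degradation, rose by a log2 of 1.66 (SE 0.10, adjusted p = 1.29e-09) in SI and 2.51 (SE 0.10, adjusted p = 5.61e-12) in LI. The repressors Cry1 and Ciart thus rose together, while Per2 and Per3 fell.

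Other members of the list were called with culture in 1 region. Bhlhe40 (DEC1), an E-box repressor, rose in SI from 50.1, 50.5 and 56.4 CPM to 125, 128 and 134 (log2 1.30, SE 0.06, adjusted p = 3.22e-11) and was not called in LI. Its paralog Bhlhe41 stood at 0.431 CPM or less in every library, was called lower with culture in SI (log2 -1.999, adjusted p = 0.00801) and lower in SI than in LI monolayers (log2 -1.48, adjusted p = 0.0488). The call between monolayers was lost on leaving out several single libraries, with the highest adjusted p (0.184) without SI monolayer replicate 1. Arntl2, the paralog of Arntl, fell in LI from 2.21, 1.84 and 1.68 CPM to 0.435, 0.495 and 0.471 (log2 -2.03, SE 0.30, adjusted p = 1.31e-05), and in SI it stood at 0.525, 1.37 and 1.05 CPM in crypts and at 1.93, 2.01 and 1.99 in monolayers (log2 0.998, adjusted p = 0.00544, just under the fold of 2). Its SI monolayers were therefore above its LI monolayers (log2 2.08, adjusted p = 1.94e-05). Fbxl21, an F-box gene whose product binds CRY proteins, stood at 3.67, 4.52 and 2.87 CPM in SI crypts and at 0.817 CPM or less elsewhere (log2 -2.91 with culture in SI, adjusted p = 4.31e-06). Wee1, a cell cycle kinase gene driven by the clock, rose in LI from 12.1, 10.1 and 10.2 CPM to 22.4, 26.9 and 26.9 (log2 1.23, SE 0.10, adjusted p = 9.90e-09). Fbxw11 was called higher with culture in LI (log2 1.03), at the limit of the call.

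**Figure D5:**
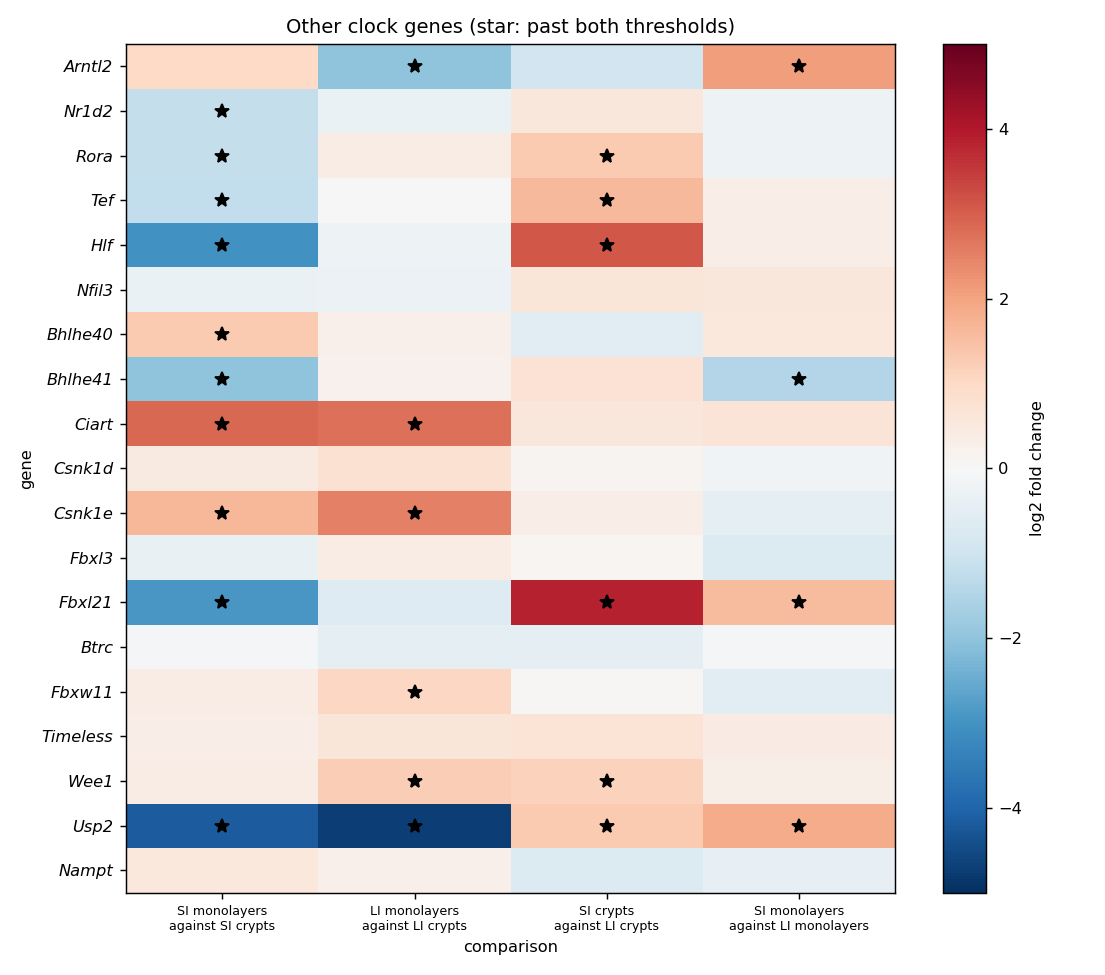
Log2 fold change (colour) of 19 genes of the wider clock list in the 4 pairwise comparisons; stars mark genes past both thresholds. Usp2 is low and Ciart and Csnk1e high with culture in both regions, Tef and Hlf are low with culture in SI and high in SI over LI crypts.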

How the data were processed

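RNA from 12 libraries was sequenced in paired-end reads on an Illumina HiSeq. The authors aligned the reads to GRCm38 with STAR 2.7.9a, counted them on GENCODE vM25 genes with featureCounts 2.0.2 and deposited raw whole-number counts for each gene. The authors also deposited a signal table in which the counts are divided by 1 DESeq2 size factor per library. Between 73.4% and 77.4% of low counts (1 to 20) were even, so many fragments may have been counted by both mates, and how strand and mates were handled is not given in the sources used here.

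Counts were filtered with filterByExpr (19581 genes kept), scaled by TMM and tested with edgeR 4.0.16 (glmQLFit, robust, glmQLFTest) in 1 model of the 4 group means with 8 residual degrees of freedom. Between replicates the biological coefficient of variation had a median of 0.127. The script was tested on simulated data. The 10 members, the 21 further clock genes, the 9 inducible genes and the marker lists were chosen with earlier results of these data known. All members are named; further clock genes may be named where called in at least 1 pairwise comparison, and 1 of them is counted but not reported here by name. Gene positions and exon lengths came from GENCODE vM21 on GRCm38, in which the 10 identifiers carry the deposited versions. Gene symbols came from a separate list of names, in which 346 of the 55487 genes had none. Promoter windows are those of RefSeq on GRCm38.p6. Libraries with the same replicate number showed no shared deviation (r of deviations -0.052 to 0.056 in 18 same-numbered pairs), so no block entered the model. This check cannot show whether libraries with other numbers share a mouse, and pairing by mouse stays unknown. Libraries of a group differed by 1.46 to 2.81 times the counting noise, and each was kept as a replicate. The alternatives were DESeq2 1.42.0, other scalings and filters, halved counts, a replicate block, fits of 2 groups, the authors' normalized values and leaving out each library.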

Additional observations from a re-analysis of the deposited data

Results flagged for a closer look

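For 8 clock genes the change with culture differed between SI and LI by the interaction test of edgeR (adjusted p under 0.05 and a difference of at least 2-fold, called for 20.0% of all tested genes). The values are the log2 change in SI minus that in LI, and region and crypt isolation cannot be told apart in them. Those of Dbp (-2.20, SE 0.36, adjusted p = 0.000189), Hlf (-2.77, SE 0.62, adjusted p = 0.00152) and Tef (-1.27, SE 0.14, adjusted p = 2.09e-06) were negative, with levels in SI crypts above those of all other libraries for each gene. Fbxl21 (-2.26, SE 0.60, adjusted p = 0.00555) also had its highest levels in SI crypts. Arntl2 gave 3.03 (SE 0.41, adjusted p = 1.56e-05), since it fell in LI and stood higher in SI monolayers than in SI crypts. Bhlhe40 gave 1.06 (SE 0.08, adjusted p = 5.20e-08), since it rose in SI past both thresholds and not in LI. Rora (-1.56, SE 0.52, adjusted p = 0.0223) and Bhlhe41 (-2.20, SE 0.81, adjusted p = 0.0348) are low transcripts, and leaving out single libraries raised their adjusted p above 0.05.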

How the results depend on the processing

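The calls of Cry1, Nr1d1 and Dbp with culture, and of Dbp between crypts and in the difference between culture effects, held in every alternative fit, including DESeq2. With no minimum fold, 7 members passed in each pairwise comparison and 3 in the difference between culture effects, in place of 3, 3, 1, 0 and 1. Leaving out 1 library gave 1 to 3 members called between crypts, the highest without SI crypt replicate 3, and 3 to 4 with culture in SI. The level of Arntl in LI crypts relative to its mean over all libraries was 0.34 with the authors' normalized counts and 0.30 with TMM. Values near 0 changed sign. For Per1 between crypts (0.01) DESeq2 gave -0.00326, upper quartile scaling -0.055, RLE scaling -0.00608, no filter -0.041, a minimum of 10 counts -0.026 and the fit of 2 groups -0.046, with -0.34 to 0.23 over left-out libraries. For Per1 with culture in SI left-out libraries gave -0.21 to 0.30. For Tef with culture in LI (0.04) upper quartile scaling gave -0.079, a minimum of 10 counts -0.040 and left-out libraries -0.071 to 0.074. For Hlf with culture in LI left-out libraries gave -1.17 (called, without LI monolayer replicate 3) to 0.030, and for the difference between culture effects of Sphk2 (0.05) they gave -0.012 to 0.18. With a minimum of 10 counts in every library, 2 of the further clock genes were called between monolayers and 4 in the difference between culture effects, in place of 4 and 7, since fewer genes (14385) were tested. Upper quartile scaling moved the median of all genes with culture in LI from -0.05 to -0.17. The replicate block changed no call of a member, and all genes called with culture in SI went from 5110 to 5017. Under it Bhlhe41 lost its call between monolayers (adjusted p = 0.0755) and in the difference between culture effects (0.0509). Halving the counts changed no call of a member. The floor of 3 counts covers counting error only, and the lowest level of Dbp, in LI monolayers, rests on 43 counts.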

Other observations

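A list of 9 genes known to be induced by glucocorticoids or cAMP, read beside Per1, was lower in SI than in LI crypts for 6 genes, higher for 0 (edgeR, adjusted p under 0.05 and a fold of at least 2; called for 22.7% of all tested genes; 8 of the 9 at an adjusted p under 0.05 alone, beside 53.9%). With culture in LI 5 were called lower and 1 higher (38.0% of all tested genes, 23.5% lower), and in SI 1 lower and 2 higher (26.1% of all tested genes). Fos, an immediate early gene, stood at 174, 181 and 186 CPM in LI crypts and at 34.8 to 46.9 CPM in all other libraries. SI and LI crypts were isolated in different ways, and the part of isolation in the levels of these 9 genes was not tested. Egr1, another immediate early gene, rose in SI from 3.88, 10.9 and 8.33 CPM in crypts to 81.5, 81.6 and 84.8 in monolayers (log2 3.42, SE 0.31, adjusted p = 1.05e-05). Tsc22d3, the glucocorticoid-induced GILZ gene, fell in LI from 35.0, 33.3 and 39.3 CPM to 5.28, 5.16 and 5.05 (log2 -2.80, SE 0.11, adjusted p = 1.24e-12), and Fkbp5, induced by the same receptor, from 56.4, 78.0 and 74.4 CPM to 34.6, 32.8 and 32.2 (log2 -1.07, SE 0.09, adjusted p = 4.90e-08; -0.98 without LI crypt replicate 2). No comparison of Per1 passed the test, in which the spread of its crypt libraries entered every comparison.

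The genes most like Arntl over the 12 libraries, among 13480 with a mean of at least 1 CPM, were Kctd1 (Pearson r of log2 CPM 0.988), Tor3a (0.980), Celsr1 (0.979), Cyba (0.977) and Eea1 (0.977). Those most like Dbp were Grin2d (0.992), Gchfr (0.989), Ttyh3 (0.989), Matk (0.985) and Acy1 (0.983). The 12 points are 4 groups of 3 libraries, so these values mainly describe group means. Of the other members, Nr1d1 was the most like Dbp (r = 0.955), at rank 120 among the 13480 genes, and Cry1 the least (r = -0.888).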
